A study of Mus musculus with 4 samples.

Results

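The transcripts described here come from 10 protein genes of the mouse mitochondrial chromosome: mt-Nd1, mt-Nd2, mt-Nd3, mt-Nd4, mt-Nd4l, mt-Nd5, mt-Nd6, mt-Cytb, mt-Co1 and mt-Atp6. They were chosen by gene symbol, and all 10 were found among the 25759 symbols of the count table. RNA was sequenced from alveolar type II epithelial cells of C57BL/6 mice at 14 weeks of age. These cells make the surfactant that keeps the air sacs of the lung open. The 2 WT libraries are labelled wild type, and the 2 mTOR Tg libraries are labelled Sftpc-mTOR transgenic, the study's conditional transgene for active mTOR in the epithelium. Sftpc is the gene of surfactant protein C, the hallmark of type II cells. The sources used here do not say whether a library came from 1 mouse or a pool, nor give the sex of the mice or any inducing treatment. The comparison asks whether these transcripts differ when mTOR, the kinase that couples nutrients to growth, is active in the epithelium.

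Mitochondria keep a small genome of their own, which encodes membrane-bound core subunits of the respiratory complexes. The members belong to complex I (NADH dehydrogenase, the mt-Nd genes), complex III (mt-Cytb, cytochrome b), complex IV (mt-Co1, the catalytic subunit of cytochrome c oxidase) and the ATP synthase (mt-Atp6, part of its proton channel). Each strand is transcribed as a long precursor, from which messengers are cut out, mostly at the transfer RNAs that lie between them. The other subunits of these complexes are encoded in the nucleus, except those of mt-Co2, mt-Co3 and mt-Atp8, which this genome also encodes. mTOR complex 1 is known to act on mitochondrial biogenesis through nuclear regulators and through translation of nuclear-encoded mitochondrial proteins.

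Some of these genes touch or overlap their neighbours, while others lie up to 376 bases apart, and overlaps bear on how reads can be counted. The short complex I gene mt-Nd4l (chrM:9877-10173 on GRCm38, plus strand) is one of the members whose level stood apart below, and it is shown whole, 297 bases. It shares its last 7 bases, in capitals, with the start of mt-Nd4 (chrM:10167-11544), with which it is carried on a single messenger. The first 60 bases of mt-Nd4 follow, with the same 7 bases in capitals. The largest member, mt-Nd5 (chrM:11742-13565, plus strand), meets mt-Nd6 (chrM:13552-14070, minus strand) end to end, and the last 60 bases of each are printed on its own strand with the 14 shared bases in capitals. Sequences are from the GENCODE M21 transcripts on GRCm38, the assembly called mm10.
mt-Nd4l: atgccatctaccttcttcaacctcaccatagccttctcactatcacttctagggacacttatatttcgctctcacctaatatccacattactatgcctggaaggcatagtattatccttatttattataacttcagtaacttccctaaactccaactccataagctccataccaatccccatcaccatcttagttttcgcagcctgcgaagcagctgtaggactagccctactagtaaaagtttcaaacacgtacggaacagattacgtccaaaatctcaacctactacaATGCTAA
mt-Nd4: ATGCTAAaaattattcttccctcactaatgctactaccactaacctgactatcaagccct
mt-Nd5: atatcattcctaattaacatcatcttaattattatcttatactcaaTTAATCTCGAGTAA
mt-Nd6: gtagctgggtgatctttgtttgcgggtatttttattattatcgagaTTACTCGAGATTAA

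All 10 are single-exon genes, and mt-Nd6 is the only member on the minus strand. The sources used here do not state whether libraries or counting kept strand. Without strand, reads of mt-Nd6 and reads of the opposite RNA over the same bases cannot be told apart. Several members also have near-identical copies in the nuclear genome. The best match of mt-Nd4l among annotated nuclear transcripts is the pseudogene Gm10222 on chromosome 1 (24612407 to 24612700), identical over 294 aligned bases, or 99.0% of the gene. The neighbouring pseudogenes of chromosome 1 match mt-Atp6 at 100% over 678 bases, mt-Nd3 at 99.7% over 345 bases and mt-Nd4 at 100% over 876 bases, 63.6% of that gene. The closest copies of the other members match less well, from 84.0% identity over 312 bases for mt-Nd1 to 97.6% over 1545 bases for mt-Co1. mt-Nd5 matched Gm4076 on chromosome 13 at 95.2% over 954 bases. How the authors treated reads that fit several places is not given, so counts of these genes are uncertain to that extent. These best-matching pseudogenes and the mitochondrial ribosomal and transfer RNAs were not found by name among the symbols of the count table. They were thus not analysed here.

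The libraries held 18146693 to 21972124 counts. Exact 95% intervals below cover counting error only and leave out differences between libraries. They can be too narrow even for counting error, since several reads can stem from a single molecule. One library, mTOR Tg replicate 1, stands apart from the other 3, so fold changes of the members and the summed ratios are also given without it. Its club cell markers summed to 163678 CPM (counts scaled to a common library total), against 57860 to 92391 CPM in the other libraries, and its Scgb1a1, the main club cell secretory product, took 13.9% of counts against 4.52% to 7.55%. All 10 club cell markers were counted in the table, and Scgb1a1 alone made 138531 CPM of the sum in that library. Gabrp, at 268 CPM against 182 to 288, and Bpifa1, at 1030 against 742 to 1031, lay within the range of the other libraries. The rest of the club cell list was highest in mTOR Tg replicate 1. Type II cell markers (11 of 11 with counts) summed to 102284 CPM in it and to 106970 to 128755 CPM in the others, and Sftpc, the largest part of that sum, took 6.35% to 7.61% of counts in all 4 libraries. Some other type II markers lay well below the other libraries in mTOR Tg replicate 1. The phosphate transporter Slc34a2 was at 3877 CPM against 7725 to 9604, and the lamellar body lipid transporter Abca3 at 1328 against 2287 to 2359. Lamp3 was at 921 against 1774 to 2011, Lpcat1 at 922 against 1611 to 1854 and Etv5 at 397 against 758 to 919 CPM. The rest differed less in that library. Sftpb was at 12468 against 13536 to 15666, Sftpa1 at 10574 against 11624 to 15140 CPM. Napsa was at 1093 against 1113 to 1458 and Muc1 at 721 against 802 to 899 CPM. Sftpd, at 2669 CPM, lay within the range of the other libraries, 2267 to 3152. Ciliated cell markers summed to 4217 CPM in mTOR Tg replicate 1 and 2433 to 3050 CPM in the others. Of these, Dnah5 was lowest in that library, at 53.9 against 68.6 to 98.7 CPM. Sec14l3 lay within the range of the others, at 1290 against 1090 to 1562 CPM, and the rest were highest in it. The endothelial list summed to 108 and 119 CPM for WT against 65.9 and 58.3 CPM for mTOR Tg. Kdr made most of that sum, at 79.6 and 87.8 CPM in WT and 48.2 and 36.1 in mTOR Tg. Emcn, under 1 CPM, had mTOR Tg values on either side of WT, and the rest of the list lay below WT in both. Fibroblast markers summed to 36.8 to 70.6 CPM, alveolar type I markers to 1550 to 1986 CPM, and red cell markers to 1041 CPM in mTOR Tg replicate 2 and 2548 to 3683 CPM in the others. The leukocyte list summed to 15196 to 24458 CPM, of which Lyz2, a lysozyme gene that type II cells also express, made 15193 to 24454 CPM. Ptprc, the pan-leukocyte marker, had 0 to 3 counts, and 2 of the 8 genes, Cd3e and C1qb, had 0 counts in all libraries, which allows up to 0.137 to 0.165 CPM. The part of these differences in the results below was not tested, and fewer cells of a type cannot be told apart from less RNA per cell in bulk samples.

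In WT cells, the levels of these messengers differed 7.19-fold between the highest and lowest member when divided by gene length. On this scale, CPM on TMM-scaled library sizes per kilobase (kb) of gene, mt-Co1 was highest at 8585 ± 62.9 (SD, n = 2). The messengers mt-Cytb at 4908 ± 16.9, mt-Atp6 at 4755 ± 53.3, mt-Nd4 at 3682 ± 19.2, mt-Nd2 at 3628 ± 145 and mt-Nd1 at 3069 ± 8.49 normalised CPM per kb followed. mt-Nd3 was at 2353 ± 157, mt-Nd5 at 1978 ± 84.5, mt-Nd4l at 1354 ± 62.7 and mt-Nd6, the light-strand messenger, at 1194 ± 18.3 normalised CPM per kb. In this order the WT values of mt-Nd4 and mt-Nd2 overlapped, and those of every other pair of neighbours lay apart. Over all 4 libraries the values of mt-Cytb and mt-Atp6, of mt-Nd5 and mt-Nd4l and of mt-Nd4l and mt-Nd6 overlapped too.

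The order of the genes differed most at its lower end in 1 library. In mTOR Tg replicate 1, mt-Nd5 was at 723 and mt-Nd4l at 498 normalised CPM per kb, both below mt-Nd6 at 1180. In mTOR Tg replicate 2 they were at 1814, 1366 and 1091, in the same order of genes as in WT. mt-Nd2 lay above mt-Nd4 in both mTOR Tg libraries and in WT replicate 1. mt-Atp6 also lay above mt-Cytb in mTOR Tg replicate 1, at 4813 against 4521 normalised CPM per kb. Levels per kb of genes that share a messenger need not be equal in these counts: mt-Nd4l lay below mt-Nd4 in every library. The sources used here do not state how reads spanning both genes were assigned.

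**Figure D1:**
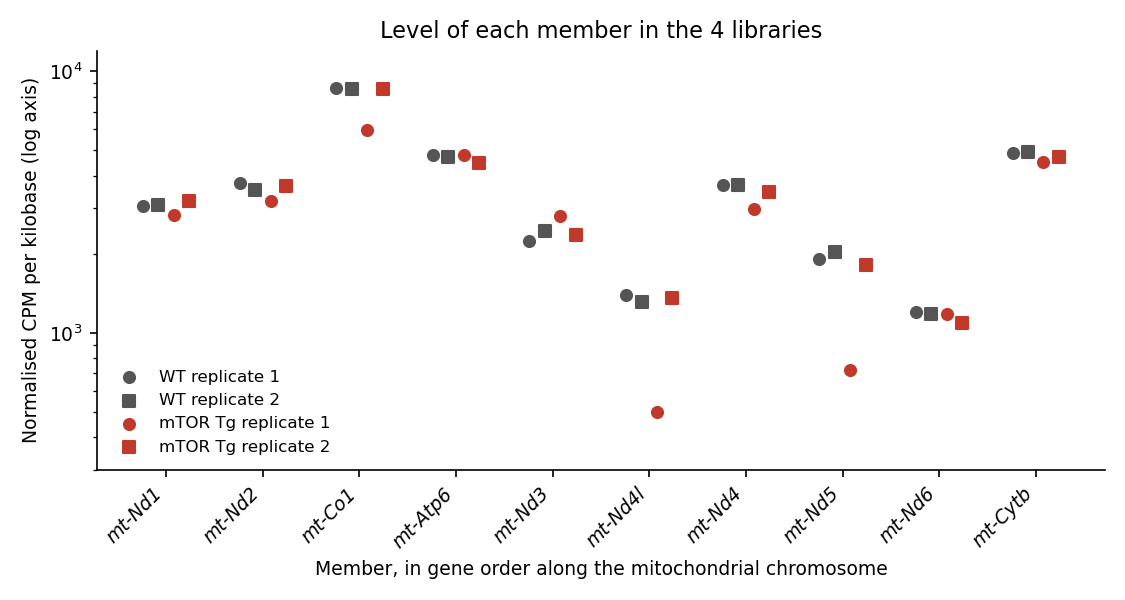
Normalised CPM per kb (log axis) of each member in the 4 libraries, with members in gene order along the mitochondrial chromosome. Grey points are WT, red points mTOR Tg, circles replicate 1 and squares replicate 2. For mt-Nd4l and mt-Nd5 the red circle of mTOR Tg replicate 1 lies far below the other 3 points, at 498 and 723.

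At an edgeR adjusted p under 0.05, 0 of the 10 messengers differed between mTOR Tg and WT, and 0% of the 13306 genes tested did. DESeq2 called 0 members and 0.0902% of genes, and limma-voom called 0 members and 0% of genes. 9 of the 10 log2 fold changes were negative, with a median of -0.08, against a median of 0.01 over all genes tested. At an unadjusted p under 0.05 there were 0 of the 10 members and 2.46% of all genes. Both mTOR Tg libraries lay below both WT libraries for 4 members (mt-Nd4, mt-Nd5, mt-Nd6 and mt-Cytb), where 17% of all genes did so. Both lay above for 0 members, against 17.6% of genes. The mTOR Tg libraries lay further from each other than the WT libraries. By library, the median log2 difference of the members was -0.15 against the WT mean in mTOR Tg replicate 1 and -0.03 in replicate 2, and WT replicate 2 lay -0.01 from WT replicate 1.

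mt-Nd5, the complex I subunit at the far end of its membrane arm, showed the most negative fold change. Its level was 3498 and 3716 normalised CPM in the WT pair and 1319 and 3309 in the mTOR Tg pair, from 63749, 73567, 26888 and 69142 counts. Replicate 1 of mTOR Tg was 2.73-fold below the WT mean, while replicate 2 lay close under the WT pair, and the groups did not overlap. The log2 fold change was -0.64 (SE 0.46, edgeR adjusted p = 0.860). Without mTOR Tg replicate 1 it was -0.12.

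mt-Nd4l, a small complex I subunit of the proton-pumping arm, had 415 and 389 normalised CPM in WT and 148 and 406 in mTOR Tg, from 7567, 7699, 3016 and 8479 counts. The low value was again that of mTOR Tg replicate 1, 2.72-fold below the WT mean, and replicate 2 lay between the WT libraries. The log2 fold change was -0.54 (SE 0.47, edgeR adjusted p = 0.860), and 0.01 without mTOR Tg replicate 1.

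In a fit of mTOR Tg replicate 1 alone against WT, whose spread is then assumed to be that of the WT pair, mt-Nd4l at -1.44 (edgeR adjusted p = 3.74e-07) and mt-Nd5 at -1.45 (edgeR adjusted p = 2.69e-05) were the 2 members called of 10, both lower. In that fit 23.6% of 13634 genes were called lower, so the share of members is near the background, and it holds no replication of mTOR Tg. The gap between the mTOR Tg libraries was at least as large, the gene itself included, in 40 of the 1541 genes with a mean of at least 100 normalised CPM for mt-Nd4l (2.60%) and in 57 of them for mt-Nd5 (3.70%), where the median gap of these genes was 0.41 on the log2 scale. These 2 genes were singled out after their values were seen.

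mt-Co1 was the only other member with a gap between the mTOR Tg libraries above that median. It had 13332 and 13194 normalised CPM in WT and 9261 and 13270 in mTOR Tg. Again replicate 1 of mTOR Tg was low and replicate 2 lay between the WT values. The log2 fold change was -0.24 (SE 0.34, edgeR adjusted p = 0.864), and 0.0005 without mTOR Tg replicate 1.

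The other complex I members kept closer together. mt-Nd4, a proton-pumping subunit, was at 5092 and 5055 normalised CPM in WT and 4092 and 4784 in mTOR Tg, lower in both mTOR Tg libraries, with a log2 fold change of -0.19 (SE 0.27). Without mTOR Tg replicate 1 that value was -0.08, and without replicate 2 it was -0.31. mt-Nd2, another pumping subunit, was at 3873 and 3660 normalised CPM in WT and 3332 and 3784 in mTOR Tg, and mt-Nd1, which lies where the quinone enters the complex, was at 2931 and 2943 in WT and 2704 and 3047 in mTOR Tg. In both genes the mTOR Tg libraries straddled at least 1 WT value, and their log2 fold changes were -0.08 (SE 0.25) and -0.03 (SE 0.24), or 0.0066 and 0.05 without mTOR Tg replicate 1. mt-Nd3, the smallest complex I member after mt-Nd4l, was the 1 member with a positive value, at 780 and 858 normalised CPM in WT and 974 and 823 in mTOR Tg, giving a log2 fold change of 0.13 (SE 0.22) that was 0.01 without mTOR Tg replicate 1. It lies directly before mt-Nd4l on the chromosome, 70 bases away, and was highest in the library in which mt-Nd4l was lowest. mt-Nd6 was at 626 and 613 normalised CPM in WT and 612.5 and 566 in mTOR Tg. The mTOR Tg values lay below WT, in replicate 1 by under 1 CPM, and the log2 fold change was -0.07 (SE 0.20), and -0.13 without mTOR Tg replicate 1.

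The messengers of complex III and the ATP synthase had values close to WT in both mTOR Tg libraries. mt-Cytb, which carries the quinone sites of complex III, had 5601 and 5628 normalised CPM in WT and 5172 and 5405 in mTOR Tg, giving a log2 fold change of -0.09 (SE 0.26), and -0.06 without mTOR Tg replicate 1. mt-Atp6 had 3264 and 3213 normalised CPM in WT and 3278 and 3037 in mTOR Tg, giving a log2 fold change of -0.04 (SE 0.24), and -0.09 without that library. The edgeR adjusted p was at least 0.860 for all 10 members.

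**Figure D2:**
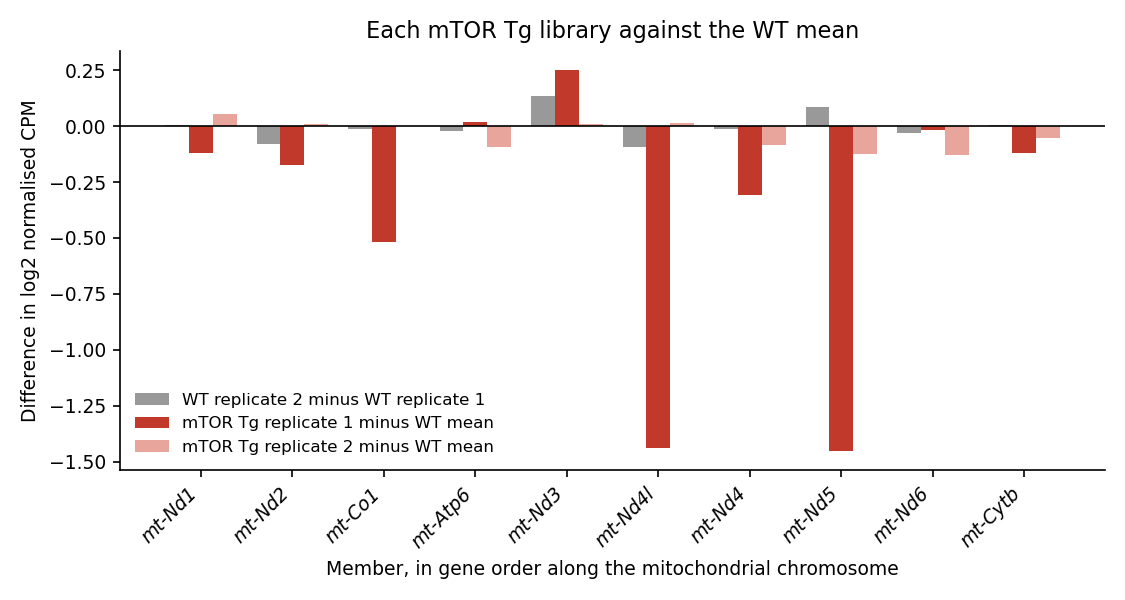
Difference in log2 normalised CPM for each member, in gene order: WT replicate 2 minus WT replicate 1 (grey), and mTOR Tg replicate 1 (red) and replicate 2 (light red) minus the WT mean. Bars are single libraries without error bars. The red bars of mt-Nd4l (-1.44) and mt-Nd5 (-1.45) exceed the others, and the light red bars lie between -0.13 and 0.05.

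The 3 other messengers of this genome in the table, which are not among the 10, were not called either. mt-Co2 (complex IV) was at 4714 and 4838 normalised CPM in WT and 5429 and 4864 in mTOR Tg, giving a log2 fold change of 0.11 (SE 0.26). It was above WT in both mTOR Tg libraries. mt-Co3 (complex IV) was at 3183 and 3556 in WT and 3644 and 3465 in mTOR Tg. mt-Atp8 (ATP synthase), which overlaps mt-Atp6 by 43 bases, was at 32.9 and 36.8 in WT and 29.7 and 38.5 in mTOR Tg, far below mt-Atp6 with which it shares a messenger. In mTOR Tg replicate 1 the complex IV messengers thus lay on both sides of WT, mt-Co1 at -0.52, mt-Co2 at 0.19 and mt-Co3 at 0.12 log2 units from the WT mean.

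The members were set beside their length, base composition and place in the genome, as a description over 10 genes that share the same 4 libraries. Across them the difference of mTOR Tg replicate 1 from WT had a Pearson's r of -0.13 with log2 length, -0.62 with GC content and -0.15 with the start position, and Spearman's rho of -0.52, -0.59 and -0.02. The members with the lowest values are the shortest, mt-Nd4l (297 bases, 41.1% GC), and the longest, mt-Nd5 (1824 bases, 37.1% GC). mt-Nd3 (348 bases, 33.0% GC), nearly as short, had the highest value. mt-Nd4, which lies between mt-Nd4l and mt-Nd5, was at -0.31 in that library.

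The 10 messengers together took 3.96% (95% exact interval 3.95 to 3.97) and 4.09% (4.08 to 4.10) of all counts in WT, and 2.87% (2.86 to 2.87) and 3.96% (3.95 to 3.97) in mTOR Tg. The summed share was thus low in mTOR Tg replicate 1. Replicate 2 lay between the WT libraries by a narrow margin, at 3.961% against 3.958% in WT replicate 1. Its place depended on the scale: in normalised CPM its sum was 38430, below both WT libraries at 39413 and 39268. The group means were 4.02% ± 0.0916 and 3.41% ± 0.774 (SD, n = 2 each, two-sided exact permutation p = 0.667, where the smallest p this design allows is 0.333). The difference of means was -0.609 percentage points, and -0.0616 without mTOR Tg replicate 1. Without Sftpc and Scgb1a1 in the total, the shares were 4.64% and 4.75% in WT and 3.61% and 4.51% in mTOR Tg (exact permutation p = 0.333, the smallest possible). The 8 members other than mt-Nd4l and mt-Nd5 summed to 3.56% and 3.66% in WT and 2.73% and 3.58% in mTOR Tg, so the sum was lower in mTOR Tg replicate 1 without those genes too.

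Shares within the pool do not depend on how libraries are scaled. They are tied to each other, since a fall in some members raises the shares of the rest. mt-Co1 made up 33.8% and 33.6% of the summed members in WT and 30.0% and 34.5% in mTOR Tg. mt-Nd5 made up 8.88% and 9.46% in WT and 4.27% (95% exact interval 4.22 to 4.32) and 8.61% in mTOR Tg, and mt-Nd4l 1.05% and 0.990% in WT and 0.479% (0.462 to 0.496) and 1.06% in mTOR Tg. Conversely mt-Nd3 took 1.98% and 2.18% in WT and 3.15% and 2.14% in mTOR Tg, mt-Atp6 8.28% and 8.18% against 10.6% and 7.90%, and mt-Cytb 14.2% and 14.3% against 16.7% and 14.1%. In each of these genes replicate 1 of mTOR Tg was the library that stood off, and replicate 2 differed little from WT. In level, replicate 1 lay 0.25 (mt-Nd3), 0.02 (mt-Atp6) and -0.12 (mt-Cytb) log2 units from the WT mean. The mTOR Tg and WT shares did not overlap for 3 of the 10 members, mt-Nd1 and mt-Nd2 above WT and mt-Nd5 below (exact permutation p = 0.333 each, the smallest possible). In level, mt-Nd1 and mt-Nd2 lay at -0.12 and -0.18 log2 units from the WT mean in mTOR Tg replicate 1. In replicate 2 they lay at 0.05 and 0.01. Shares within the pool have no background over all genes to set this number against. On the other scale, that of levels, 17.6% of all genes lay above and 17% below without overlap.

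**Figure D3:**
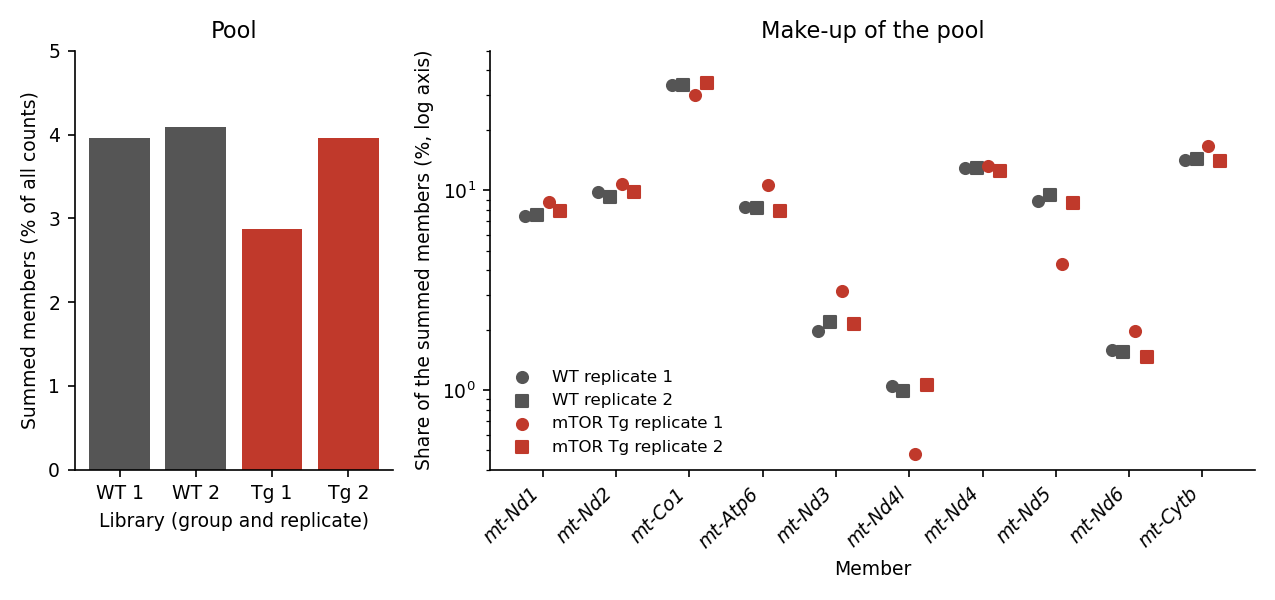
Left, summed members as a percentage of all counts in each library (bars start at 0). Right, the share of each member within that sum (log axis), with WT in grey, mTOR Tg in red, circles for replicate 1 and squares for replicate 2. The bar of mTOR Tg replicate 1 is the lowest at 2.87%, and its shares of mt-Nd4l and mt-Nd5 are 0.479% and 4.27%.

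Ratios between neighbours show the same library. The counts of mt-Nd4l were 0.0815 and 0.0769 of those of mt-Nd4 in WT, then 0.0361 and 0.0848 in mTOR Tg replicates 1 and 2. The counts of mt-Nd5 were 5.59 and 6.06 times those of mt-Nd6 in WT, but 2.15 and 5.85 times in mTOR Tg replicates 1 and 2. These pairs were chosen after the values were seen. The log2 ratio of mt-Nd6 to the other 9 members sets the light-strand gene against the heavy-strand genes by annotation only. Whether counting kept strand is not stated, so this need not be a ratio of the RNA of each strand. It was -5.95 and -5.98 in WT and -5.63 and -6.06 in mTOR Tg. The mean difference was 0.12, with the mTOR Tg values on either side of WT (exact permutation p = 1). Without mTOR Tg replicate 1 the difference was -0.10.

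Complexes I, III, IV and V are assembled from mitochondrial and nuclear subunits. The ratio of the members' counts to those of fixed lists of nuclear genes was lower in mTOR Tg replicate 1 for each complex. For complex I (7 members against 7 nuclear core subunits) the summed counts were 40.3 and 42.3 times the nuclear sum in WT, and 22.5 and 40.6 times in mTOR Tg replicates 1 and 2. For mt-Cytb against 9 nuclear complex III subunits the ratio was 8.27 and 8.74 in WT and 5.43 and 8.60 in mTOR Tg. For mt-Co1 against 10 nuclear complex IV subunits it was 11.5 and 12.3 in WT and 5.13 and 12.1 in mTOR Tg. That ratio holds mt-Co1 alone: mt-Co2 and mt-Co3 lay at 0.19 and 0.12 log2 units from the WT mean in mTOR Tg replicate 1. For mt-Atp6 against 16 nuclear genes of the ATP synthase the ratio was 1.36 and 1.44 in WT and 1.04 and 1.34 in mTOR Tg. Those 16 include Atpif1, the gene of an inhibitor of the enzyme and not of a structural subunit. The mean log2 differences were -0.45, -0.31, -0.60 and -0.24 in this order (exact permutation p = 0.667 for the first 3 and 0.333 for the ATP synthase). Without mTOR Tg replicate 1 they were -0.03, 0.02, 0.02 and -0.06.

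**Figure D4:**
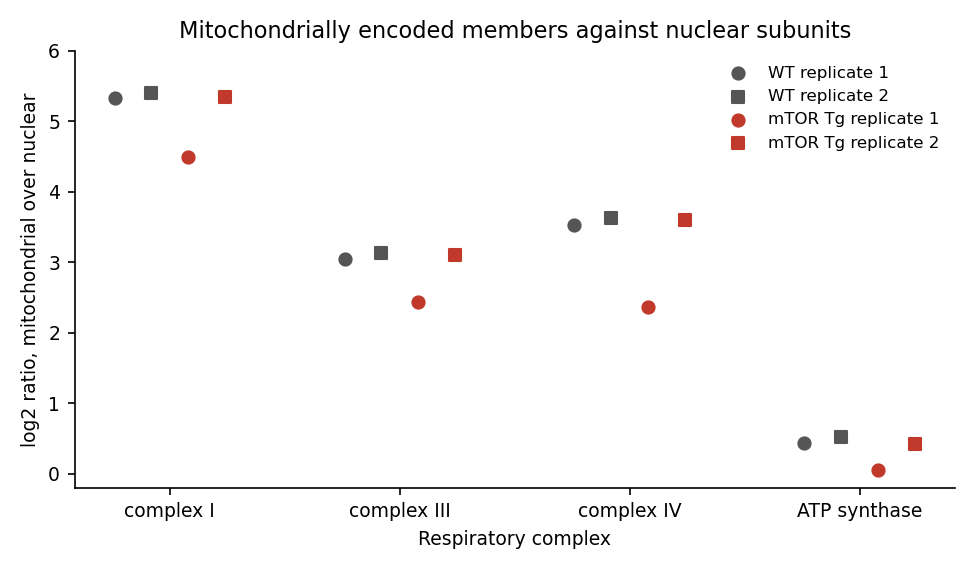
log2 ratio of the summed counts of mitochondrially encoded members to those of the listed nuclear genes of the same complex in each library. WT is in grey and mTOR Tg in red, with circles for replicate 1 and squares for replicate 2. In each complex the red circle is lowest. For complex IV, where mt-Co1 alone stands for the mitochondrial side, it lies at 2.36 against 3.53 to 3.62 in the other libraries.

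These are ratios of counts, not of transcript numbers, since gene lengths differ. In mTOR Tg replicate 1 the nuclear side lay above WT in each complex, while mt-Cytb was at -0.12 and mt-Atp6 at 0.02 log2 units from the WT mean. The median log2 difference from the WT mean was taken over the listed nuclear genes. In that library it was 0.60 for complex I, 0.59 for complex III, 0.70 for complex IV and 0.65 for the ATP synthase. In replicate 2 it was -0.04, -0.07, -0.03 and -0.03. In the fit of all libraries, positive log2 fold changes were found for 6 of 7, 9 of 9, 10 of 10 and 16 of 16 of these genes, with 0 called by edgeR, and for 3 of 4 subunits of complex II, which has no mitochondrially encoded subunit. Cox4i1, a regulatory complex IV subunit, was at 259 and 249 normalised CPM in WT and 429 and 245 in mTOR Tg. Cox6a1 was at 260 and 239 in WT and 437 and 254 in mTOR Tg, and Ndufs7, a core subunit that carries an iron-sulfur cluster, was at 77.7 and 72.3 in WT and 126 and 72.7 in mTOR Tg.

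Genes that make, process and translate mitochondrial RNA showed 0 calls in edgeR. Of 18 genes of mitochondrial DNA transcription and replication 10 had positive and 8 negative log2 fold changes, with a median of 0.03. Tfam, which packages the mitochondrial genome and activates its promoters, was at 20.9 and 20.5 normalised CPM in WT and 18.2 and 19.3 in mTOR Tg, giving a log2 fold change of -0.14 (SE 0.20). Polrmt, the mitochondrial RNA polymerase, was at 24.3 and 23.7 in WT and 28.3 and 23.4 in mTOR Tg. Mterf4, which takes part in assembly of the mitochondrial ribosome, had the smallest p of this list, at 11.1 and 13.9 in WT and 30.1 and 14.6 in mTOR Tg.

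Of 26 genes of mitochondrial RNA processing and stability 16 had positive and 10 negative values, with a median of 0.13, and the median difference of mTOR Tg replicate 2 from the WT mean was 0.03. Lrpprc, which stabilises mitochondrial messengers and keeps them polyadenylated, was at 26.2 and 27.5 normalised CPM in WT and 26.5 and 31.4 in mTOR Tg, giving a log2 fold change of 0.11 (SE 0.21). Pus1, a pseudouridine synthase of transfer RNAs, was at 10.04 and 9.95 in WT and 17.3 and 12.9 in mTOR Tg, and Rexo2, an exonuclease that degrades short RNA in mitochondria, at 66.3 and 70.0 and at 109 and 70.9. Ptcd2 was at 8.51 and 8.89 in WT and 13.5 and 10.5 in mTOR Tg. Among 13 mitochondrial translation factors the median was 0.06, with Tufm, the elongation factor, at 45.4 and 44.0 in WT and 70.6 and 45.3 in mTOR Tg.

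Regulators of mitochondrial biogenesis had a median of -0.18 over 14 genes, 5 positive and 9 negative. By library, against the WT mean, the median was -0.46 on the log2 scale (mTOR Tg replicate 1) and 0.05 (replicate 2). Myc was the 1 gene in all of these lists with an unadjusted edgeR p under 0.05, where 2.46% of all genes tested had such a value. It had 3.40 and 3.18 normalised CPM in WT and 5.93 and 5.55 in mTOR Tg, and its log2 fold change was 0.80 (SE 0.26, edgeR adjusted p = 0.860). Ppargc1a, the coactivator known for driving mitochondrial biogenesis, had 213 and 169 counts in the WT pair and 111 and 258 in the other pair, with the mTOR Tg values on either side of WT. Gabpa, a transcription factor of nuclear respiratory genes, was at 33.9 and 37.0 normalised CPM in WT and 14.0 and 32.2 in mTOR Tg.

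The summed members were at 39413 and 39268 normalised CPM in WT and 30892 and 38430 in mTOR Tg. The genes whose pattern over the 4 libraries was nearest, by the root mean square difference of centred log2 normalised CPM among 9098 genes with a mean of at least 10 normalised CPM, were Zdhhc9 at 0.0057, Scfd1 at 0.0092, Nucks1 at 0.0096 and Klhdc2 and Actr3 at 0.0107 each. Zdhhc9 was at 45.9 and 46.1 normalised CPM in WT and 35.9 and 45.03 in mTOR Tg. In all, 1121 of these genes lay within 0.1, a cut that genes with a smaller drop in mTOR Tg replicate 1 can also meet.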

How the data were processed

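The table the authors deposited holds raw counts, whole numbers for each gene symbol in 4 libraries. The tools HISAT2 and edgeR and the build mm10 are named, per the submitters' processing notes. Versions, counting program, annotation, strand and the handling of multi-mapped reads: not given in the sources used here. Columns were tied to samples through the labels.

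Differences were tested with edgeR 4.0.16 (R 4.3.3): filterByExpr by group (minimum count 10, 13306 genes), TMM factors, and the quasi-likelihood test with genotype as the only term, with Benjamini-Hochberg adjustment over all genes tested. SE is the log2 fold change divided by the square root of F. Log2 CPM used a prior count of 2. Nothing says that samples are separate animals, so p-values rest on the spread of these samples alone, which may be technical. Shares and ratios were compared by two-sided exact permutation tests.

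The members and lists were chosen with earlier results of these data known. Of each list, genes with the smallest p could be named, with Tfam, Polrmt, Lrpprc and Ppargc1a always named. The code was tested on simulated counts. Alternatives were other scaling factors, filters, DESeq2 1.42.0, limma-voom 3.58.1, totals without mitochondrial genes, a replicate block and leaving out each library.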

Additional observations from a re-analysis of the deposited data

How the results depend on the processing

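The direction of every member's log2 fold change, and its failure to pass the threshold, held in all 90 values from the 9 settings that keep all libraries (adjusted p from 0.676 to 0.999). With 1 library left out, 33 of 40 values kept both, 5 turned sign and 2 passed. With a library left out, values ran from -0.12 to 0.0527 for mt-Nd1, from -0.18 to 0.0066 for mt-Nd2, from -1.44 to 0.013 for mt-Nd4l, from -0.52 to 0.0005026 for mt-Co1 and from -0.0928 to 0.0173 for mt-Atp6, each with the positive end without mTOR Tg replicate 1 except mt-Atp6, where leaving out mTOR Tg replicate 2 gave it. The 2 that passed, mt-Nd4l and mt-Nd5, did so without mTOR Tg replicate 2. Members had a median of -0.14 with library size only, and of -0.148 to -0.0273 with a library left out. The number of genes called was 12 with DESeq2 (318 at an unadjusted p under 0.05), 0 with limma-voom (322) and 11 to 6197 with a library left out, where 1 library stands for a group. A replicate block, whose numbers are shared by label only, called 37 genes and 0 members, and deviations of same-numbered libraries correlated at 0.07 across genes. Members whose shares did not overlap numbered 3 to 10 with a library left out, where a single value more easily falls outside a pair. The causes of these shifts were not tested. Counting error is small at this depth: the lowest member count was 3016.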
